A study of Mus musculus with 48 samples.

Results

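The meibomian glands of aromatase knockout mice were compared between females and males, to show which autosomal genes differ between the sexes of animals that make no estrogen. The samples were the 12 arrays titled as knockout meibomian glands, of 48 arrays in the series. They are 6 Affymetrix arrays, from 3 pools of female and 3 pools of male glands, and 6 CodeLink arrays of the same labelled RNA, which repeat the measurement and add no mice. Each pool held glands of 5 to 8 mice. The knockout mice were homozygous, and wild type mice of matched age, also 3 pools of each sex, served as the comparison with aromatase present. Age and strain are not given in the sources used here. Pooling hides the spread between animals, so p-values measure the spread between pools, and the number of arrays limits the precision of every value. No probe set naming aromatase alone was on the arrays, so the genotype labels have no check from the deleted gene.

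Aromatase, the product of Cyp19a1, turns androgens into estrogens. Without it, ovaries and testes still make androgens, and the sexes still differ in their sex chromosomes and gonads. Meibomian glands are large sebaceous glands in the eyelids, whose cells, the meibocytes, fill with wax esters and other lipids and burst to release the oil that covers the tear film. They carry androgen receptors, and androgens are known to act on their lipid synthesis. The eyelid around the glands holds conjunctiva, skin, connective tissue, vessels, immune cells and the skeletal muscle that closes the lid. In such bulk tissue, fewer cells of a type and less RNA per cell cannot be told apart.

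The tissue label fitted the markers. On the scale used throughout, log2 signal relative to the median gene of the array, the meibocyte enzymes Scd1, a fatty acid desaturase, and Elovl4, which makes very long chain fatty acids, averaged 6.29 and 5.60 in knockout females and 6.30 and 5.59 in knockout males. In at least 1 sex, all 18 measured meibocyte and sebaceous markers of 23 listed lay above the pseudocount. This is the small value added to each signal before the logarithm. Of 10 measured lacrimal and salivary secretory markers, 4 were below it in both sexes. The pseudocount is a low bar, which all 22 measured skeletal muscle and all 21 measured endothelial markers also passed, so it says little about the tissue. The sex labels also fitted. Xist, the RNA that coats the inactive X chromosome, stood at 3.88, 3.92 and 3.65 in the female pools and at −2.58, −2.39 and −2.67 in the male pools. Y-linked Eif2s3y, a translation initiation factor gene, stood at −3.51, −4.46 and −3.32 in females, with a mean signal under the pseudocount, and at 3.09, 3.23 and 2.81 in males. The X-linked gene Kdm6a, a histone demethylase gene that escapes inactivation, was higher in females by 0.56 ± 0.14 (limma, adjusted p = 0.0268), while Eif2s3x (0.28 ± 0.11, adjusted p = 0.132) and Ddx3x (0.15 ± 0.13, adjusted p = 0.537) did not pass.

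Some technical measures also differed between the sexes. The median Affymetrix signal was 56.7 to 64.0 in knockout female and 58.85 to 74.6 in knockout male arrays. The ratio of 3′ to 5′ Actb signal, a measure of RNA or labelling quality, was 3.94 to 4.41 in knockout females and 2.76 to 3.90 in knockout males, and 4.35 to 6.83 against 2.93 to 3.72 in wild type. For Gapdh, the ratio was 2.79 to 3.20 in knockout females and 2.24 to 3.60 in knockout males, and 3.31 to 5.12 against 2.3 to 3.05 in wild type. The probe for the B1 repeat, a short element found in many transcripts, stood at 4.23 to 4.40 in knockout females against 3.20 to 3.77 in knockout males, and at 4.08 to 4.90 against 3.03 to 3.81 in wild type. The probe for B2, another such repeat, stood at 5.96 to 6.1 in knockout females against 5.97 to 6.17 in knockout males. The Actb ratio and the B1 level thus separated the sexes in both genotypes, and the Gapdh ratio did so in wild type. The median signal, the Gapdh ratio and the B2 level overlapped between the knockout sexes. The part of these measures in the results below was not tested. The second wild type female pool stood apart, with a median signal of 35.5 and the Actb ratio of 6.83. It enters the knockout comparison through the shared estimate of spread, the choice of probe sets and the filter on low values. With that pool left out of the fit alone, and the probe sets and filter kept, 553 genes passed against 501 with it.

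Among 7216 autosomal genes tested, 475 differed between knockout females and males at 5% (limma with Benjamini-Hochberg adjustment over all 7436 genes tested, 6.58% of the autosomal genes). Of these 475, 197 were higher in females (2.73%) and 278 in males (3.85%). Over all chromosomes, 501 genes passed (6.74%), 207 higher in females and 294 in males. Most differences were modest. Their median size was 0.56 on the log2 scale, or 1.48-fold, the smallest was 0.32, and 14 genes higher in females and 10 higher in males reached 2-fold. The median difference over all genes tested was −0.04. The balance of the directions depended on the scaling, with 293 higher in females and 251 in males after quantile normalization, and 144 and 131 on CodeLink. The number of calls rested on single pools. It fell to 63 without the third female pool, to 160 without the first female pool and to 176 without the second male pool. With any 1 knockout pool left out, 56 of the 475 genes passed in all 6 fits in the same direction, 24 of them higher in females and 32 in males. The named genes that passed were 85, counting sex chromosome genes and leaving out those named only under other observations at the end. Of these 85, 38 passed in all 6 of these fits. Without the third female pool 47 of the 85 lost their call, without the first female pool 29, without the second male pool 22, without the third male pool 21, without the first male pool 12 and without the second female pool 6. Of the X-linked genes tested, 24 of 211 passed, 9 higher in females and 15 in males. In 25.1% of all 7436 genes the female and male pools did not overlap, which is the background for each such statement below.

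**Figure D1:**
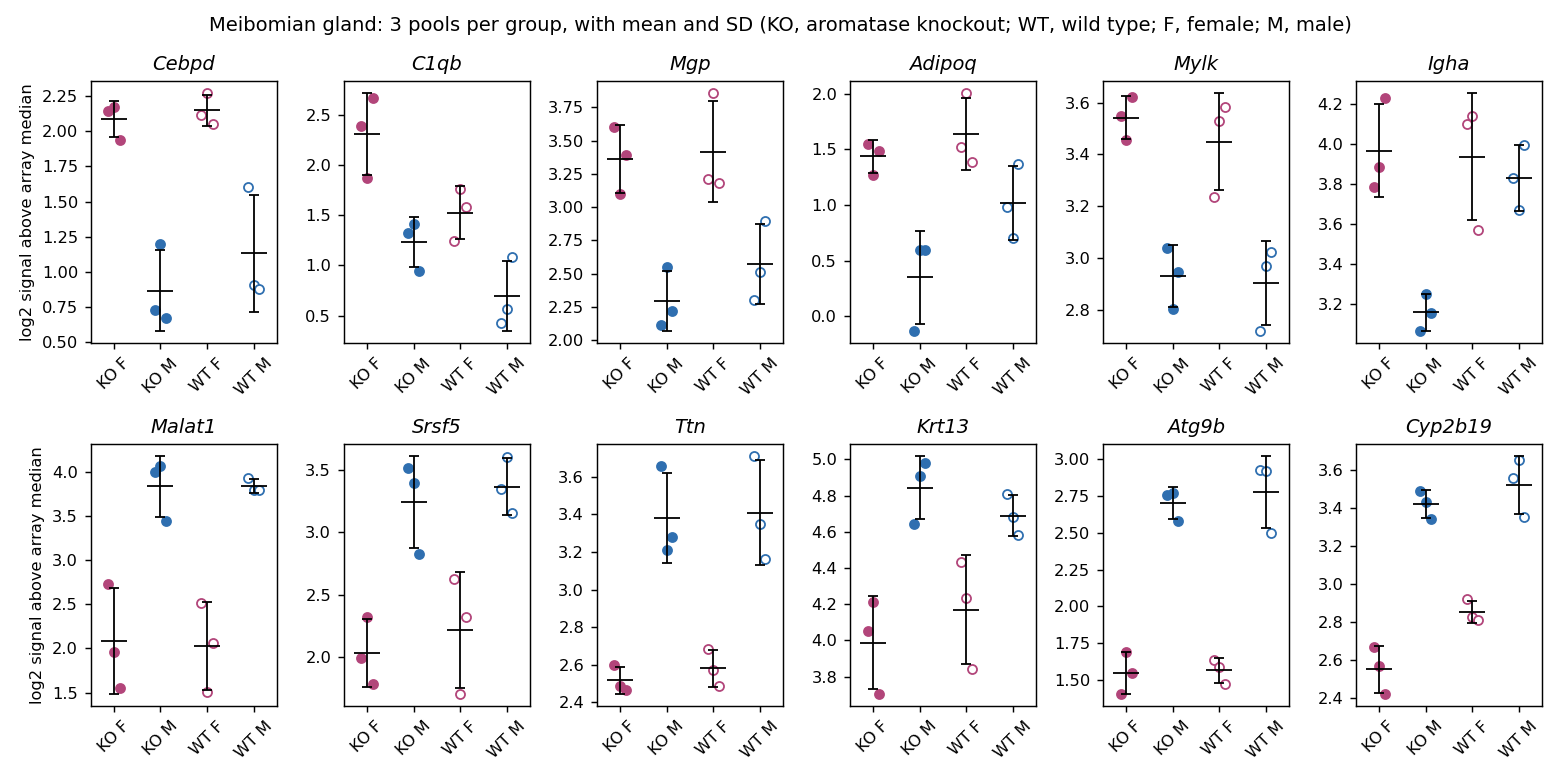
Log2 signal above the array median (vertical axis, a scale of its own in each panel) for 12 genes in the 3 pools of each group, filled points for aromatase knockout and open points for wild type, with horizontal bars for means and error bars for SD. Knockout females lie above knockout males in all pools for the 6 upper genes and below them for the 6 lower genes.

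Macrophage and dendritic cell genes formed one of the groups higher in knockout females. Of 22 tested markers of 23 listed, 6 passed higher in females, against 2.73% of autosomal genes, and none passed higher in males. In 21 of the 22 the difference was positive, with a median of 0.52. C1qb, a chain of the complement component that tags debris and microbes, stood at 2.40, 1.87 and 2.68 in the female pools and at 1.33, 1.42 and 0.95 in the male pools. All female pools lay above all male pools, a 2.12-fold difference (1.08 ± 0.21, adjusted p = 0.00818). Laptm5, a lysosomal membrane protein of blood cells, stood at 1.80, 1.32 and 2.08 in females and at 0.60, 0.88 and 0.69 in males (1.01 ± 0.18, adjusted p = 0.00736). Its difference on CodeLink was only 0.20, and that spot was too dim to be tested. Tyrobp, the signalling adaptor of many myeloid receptors (1.00 ± 0.25, adjusted p = 0.0289), and Adgre1, the surface receptor that marks mouse macrophages (0.88 ± 0.22, adjusted p = 0.0265), were higher in females as well. Ms4a6d, a membrane protein of the same family as CD20, was outside the list and higher by 1.06 ± 0.26 (adjusted p = 0.0256). The mean level of the whole list was 1.51 to 1.98 in female and 1.02 to 1.46 in male pools, and no measured marker was below the pseudocount. The count of 6 fell to 3 without the first female pool, to 1 without the third female pool, to 3 without the first male pool and to 2 without the third male pool. Laptm5 passed in each of these fits, and C1qb did not without the third female pool (adjusted p = 0.0621).

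The upstream sequences of C1qb and Laptm5 are shown because both genes move together and each holds AGAACA, the half-site of the element that androgen and glucocorticoid receptors bind. They are RefSeq promoters of assembly GRCm38.p6, the 250 bases before the gene start, read 5′ to 3′ on the gene's strand, with the half-site in capitals. The half-site was searched on both strands and reads TGTTCT where it lies on the other strand.
C1qb, chr4:136886201-136886450, minus strand: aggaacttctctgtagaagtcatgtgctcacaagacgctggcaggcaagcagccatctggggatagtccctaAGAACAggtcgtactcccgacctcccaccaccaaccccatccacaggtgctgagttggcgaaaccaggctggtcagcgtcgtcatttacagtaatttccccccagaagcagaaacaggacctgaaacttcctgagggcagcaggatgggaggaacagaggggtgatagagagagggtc
Laptm5, chr4:130913066-130913315, plus strand: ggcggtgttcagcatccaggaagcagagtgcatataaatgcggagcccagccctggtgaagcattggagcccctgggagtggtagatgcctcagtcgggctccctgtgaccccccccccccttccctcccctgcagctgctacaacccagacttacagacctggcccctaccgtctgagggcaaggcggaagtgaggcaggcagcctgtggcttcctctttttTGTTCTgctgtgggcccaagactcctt
The half-site occurred upstream of 12 of 136 genes higher in knockout females (8.8%), of 26 of 231 genes higher in males (11.3%) and of 622 of all 5876 autosomal genes tested that have a promoter in the table (10.6%). The full androgen and glucocorticoid response element and the estrogen response element, each searched with exact letters on both strands, occurred in 0 of these 5876 windows. A match is a description of the letters and no evidence of binding.

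Other immune genes were also higher in knockout females. All 5 tested genes of class II antigen presentation, the molecules that show peptides to helper T cells, had positive differences with a median of 0.65, and 3 of them passed. H2-Ab1, a chain of the class II molecule, stood at 2.52, 2.49 and 2.76 in females and at 1.44, 2.05 and 2.00 in males (0.76 ± 0.16, adjusted p = 0.0115). Its chaperone Cd74 was higher by 0.65 ± 0.14 (adjusted p = 0.0149), and H2-DMa, which helps load the peptide, by 0.75 ± 0.17 (adjusted p = 0.0178). These 3 genes also passed on CodeLink, where they were higher by 0.65, 0.76 and 0.79. Without the third female pool, 0 of the 3 passed on Affymetrix. All 9 tested genes of class I presentation stayed under the threshold, with a median of −0.07.

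Of 12 tested cytokines and chemokines, 5 passed higher in females and the list median was 0.55. Ccl9, a chemokine that attracts myeloid cells in mice, stood at 1.91, 1.73 and 2.28 in females and at 0.49, 1.36 and 0.75 in males (1.11 ± 0.27, adjusted p = 0.0253). Ccl6, another mouse chemokine, was higher by 0.92 ± 0.21 (adjusted p = 0.0195), Cx3cl1, the membrane-bound chemokine fractalkine, by 0.60 ± 0.15 (adjusted p = 0.0297) and Cxcl12, a stromal chemokine, by 0.50 ± 0.12 (adjusted p = 0.02). The count of 5 became 1, 0, 3 and 1 without the first female, the third female, first male and the third male pool, and 3 with no filter on low values or with the 6 arrays of the contrast alone. On CodeLink 2 of the list passed.

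Antibody genes were higher in knockout females, although short immunoglobulin probes can also take up related transcripts. Igha, the constant region of IgA, the antibody of mucosal surfaces, stood at 3.79, 3.88 and 4.23 in females and at 3.07, 3.25 and 3.16 in males (0.81 ± 0.15, adjusted p = 0.00817). Jchain, which joins IgA units, was higher by 0.90 ± 0.22 (adjusted p = 0.024), and Igkv8-30, a light chain variable gene, by 1.41 ± 0.23 (adjusted p = 0.00409). Igha and Jchain were 2 of 3 tested B and plasma cell markers, and their count became 0 without the third female pool and 1 without the first female, first male or the third male pool. Il7r, the interleukin 7 receptor of lymphocytes, was higher by 0.77 ± 0.16 (adjusted p = 0.0124), and Cpa3, a protease of mast cells, by 0.89 ± 0.17 (adjusted p = 0.00818). Interferon-stimulated genes went the other way in sign, with 10 of 11 differences negative, but 1 passed, Oasl2, an antiviral gene higher in males by 0.81 ± 0.15 (adjusted p = 0.00817). The mean level of that list was 0.40 to 0.53 in female and 0.31 to 1.37 in male pools, so the sexes overlapped and the male pools were widely spread.

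Connective tissue genes gave the most calls of any list on the female side. All 24 tested fibroblast and matrix markers had positive differences in the knockout, with a median of 0.41, and 9 passed. Col6a2, a chain of collagen VI, stood at 2.65, 2.73 and 2.79 in females and at 1.83, 1.93 and 2.23 in males (0.73 ± 0.15, adjusted p = 0.0115). Col15a1, a basement membrane collagen (0.87 ± 0.18, adjusted p = 0.012), Fn1, fibronectin (0.66 ± 0.16, adjusted p = 0.0215), and Thy1, a fibroblast surface protein (0.52 ± 0.12, adjusted p = 0.0166), were higher as well. On CodeLink, 20 of 22 markers had the same sign with a median of 0.34, 3 passed, and Thy1 differed by only 0.04. The mean level of the list was 2.83 to 2.94 in female and 2.40 to 2.58 in male pools. The count of 9 fell to 3, 1 and 3 without the first female, the third female and second male pool, to 6 without the first male pool and to 6 without the third male pool.

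Outside these lists, 2 secreted matrix proteins were among the larger differences. Mgp, matrix Gla protein, which keeps tissue from calcifying, stood at 3.60, 3.10 and 3.39 in females and at 2.12, 2.55 and 2.22 in males, a 2.1-fold difference (1.07 ± 0.19, adjusted p = 0.00671). Ccn3 of the CCN family stood at 0.11, −0.03 and 0.16 in females and at −1.17, −1.06 and −0.93 in males (1.13 ± 0.17, adjusted p = 0.00197). Both passed on CodeLink, higher by 1.03 and 0.80, and with any 1 knockout pool left out. Fscn1, the actin-bundling protein fascin, was higher by 1.01 ± 0.22 (adjusted p = 0.0166), but a dimmer probe set for it gave −0.81. Sfrp2, a secreted Wnt antagonist, was higher by 0.76 ± 0.20 on Affymetrix (adjusted p = 0.0378) and differed by −1.57 on CodeLink, where its spot lacked the flag G in all female pools.

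Contractile and vascular genes had the same direction. All 6 tested smooth muscle markers were positive, with a median of 0.50, and 3 passed. Mylk, the kinase that starts smooth muscle contraction, stood at 3.55, 3.46 and 3.62 in females and at 3.04, 2.80 and 2.95 in males (0.61 ± 0.12, adjusted p = 0.0091). Myh11, smooth muscle myosin, was higher by 0.66 ± 0.16 (adjusted p = 0.024) and Cnn1, calponin, by 0.54 ± 0.15 (adjusted p = 0.0415). Both of these also passed on CodeLink. Of 10 tested endothelial markers, 3 passed and 9 were positive, with a median of 0.24. They were Esam, a junction protein (0.87 ± 0.16, adjusted p = 0.00818), Ramp2, a partner protein in the adrenomedullin receptor (0.58 ± 0.16, adjusted p = 0.0425), and Vwf, the clotting protein von Willebrand factor (0.66 ± 0.18, adjusted p = 0.0413). The smooth muscle count became 1, 0 and 1, and the endothelial count 1, 0 and 1, without the first female, the third female and second male pool. The counts were 2 and 2 without the first male pool and 2 and 2 without the third male pool, and 2 smooth muscle markers passed without the second female pool. With the brightest 40% of genes tested, 1 endothelial marker passed, and after quantile normalization 5 did.

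Fat and nerve sheath markers were few and were higher in females. Adipoq, the adipocyte hormone adiponectin, stood at 1.55, 1.27 and 1.48 in females and at −0.13, 0.59 and 0.60 in males, and the pools did not overlap (1.08 ± 0.21, adjusted p = 0.00818). CodeLink gave 1.17. Car3, a carbonic anhydrase abundant in fat and muscle, was higher by 0.63 ± 0.16 (adjusted p = 0.0323). These 2 were among 3 tested adipocyte markers, and 1 of them passed without the first female, the third female, second male or the third male pool. Mbp, a protein of the myelin sheath, stood at 1.77, 2.08 and 2.56 in females and at 1.09, 1.06 and 1.05 in males (1.07 ± 0.15, adjusted p = 0.00193).

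**Figure D2:**
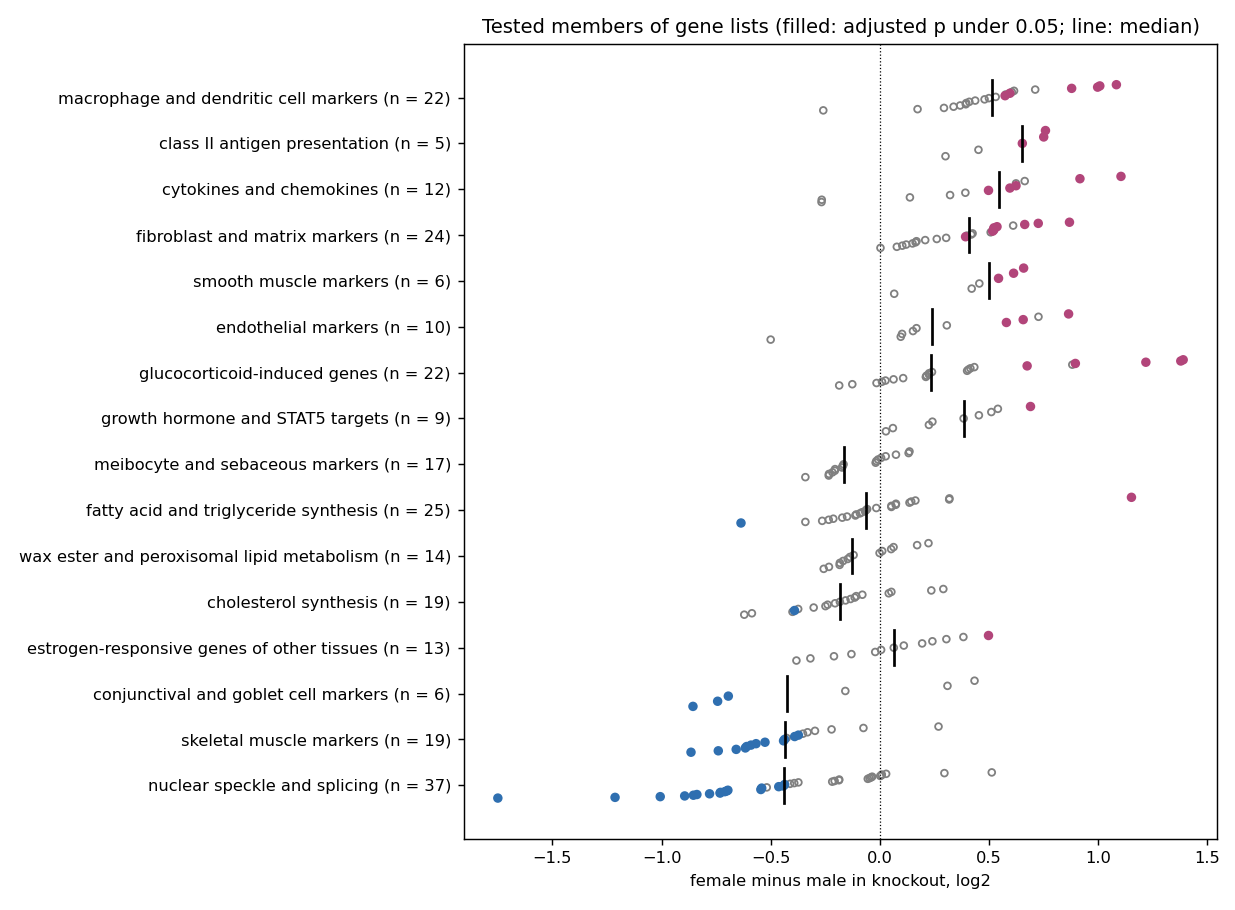
Female minus male difference in the knockout on the log2 scale (horizontal axis) for every tested member of 16 gene lists, 1 point per gene, with filled points for adjusted p under 0.05, the number tested in brackets and a vertical line at the list median. Immune, matrix and vascular lists lie mostly to the right of 0, the skeletal muscle and splicing lists to the left, and the lipid lists near 0.

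Genes known to be induced by glucocorticoids were among the largest female differences. The list was written after values had been seen, so its count is a description. Of 22 tested members, 19 were positive with a median of 0.23, and 5 passed, all higher in females. Cebpd, a transcription factor of the acute stress response, stood at 2.14, 2.18 and 1.94 in females and at 0.73, 1.20 and 0.67 in males, a 2.33-fold difference (1.22 ± 0.18, adjusted p = 0.00193), and CodeLink gave 1.25. X-linked Tsc22d3, which encodes the glucocorticoid-induced leucine zipper protein and also responds to androgens in other tissues, stood at 3.93, 3.31 and 3.47 in females and at 2.25, 2.48 and 1.85 in males (1.38 ± 0.18, adjusted p = 0.00132). Both passed with any 1 knockout pool left out.

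The other 3 were Zbtb16, Per1 and Mt1. Zbtb16, a zinc finger transcription factor, stood at 0.89, −0.82 and 0.44 in females and at −1.61, −0.94 and −1.10 in males (1.39 ± 0.37, adjusted p = 0.0385). Its second female pool lay close to the males, and without any 1 of the other 5 knockout pools it no longer passed, with adjusted p from 0.0636 to 0.16. Per1, a clock gene with a glucocorticoid-responsive promoter, was higher by 0.90 ± 0.18 (adjusted p = 0.0113). It kept its call with any 1 knockout pool left out, but differed by 0.11 on CodeLink, where its spot was too dim to be tested. Mt1, the metal-binding protein metallothionein, was higher by 0.67 ± 0.15 (adjusted p = 0.0164). Fkbp5, a chaperone of steroid receptors named after its values were seen, stood at 2.48, 1.40 and 1.95 in females and at 1.01, 1.00 and 1.17 in males and missed the threshold (0.88 ± 0.27, adjusted p = 0.0588). The count of 5 became 3 without the first or the third female pool, and 3 passed on CodeLink. The receptor gene Nr3c1 was higher in males by 0.58 ± 0.13 (adjusted p = 0.0169) at its reported probe set, by 0.07 at another bright probe set, and had a difference of 0.11 towards females on CodeLink.

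Skeletal muscle genes were higher in knockout males. Of 19 tested markers, 12 passed higher in males, against 3.85% of autosomal genes, 18 were negative and the median was −0.44. Ttn, the giant spring protein titin, stood at 2.60, 2.48 and 2.47 in females and at 3.66, 3.21 and 3.28 in males, and no pools overlapped (−0.87 ± 0.14, adjusted p = 0.00317). Myoz1, a protein of the sarcomere's Z disc, differed by −0.74 ± 0.13 (adjusted p = 0.00515), Tnnt3, fast troponin T, by −0.62 ± 0.11 (adjusted p = 0.00736) and Tnni2, fast troponin I, by −0.66 ± 0.12 (adjusted p = 0.00818). A second bright probe set for Tnni2 gave 0.14. CodeLink had 14 of 15 markers on the male side with a median of −0.46, of which 4 passed.

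Muscle genes outside the list moved likewise. Trdn, triadin of the muscle calcium store, had the largest autosomal difference, with 1.00, 1.35 and 2.00 in females and 2.92, 3.58 and 3.17 in males, a 3.43-fold difference (−1.78 ± 0.27, adjusted p = 0.00228). Of its other probe sets, 2 gave −1.70 and −1.80, and a dimmer one gave 0.02. Cmya5, a muscle scaffold protein, stood at 1.67, 1.77 and 1.58 in females and at 2.51, 2.51 and 2.67 in males (−0.89 ± 0.13, adjusted p = 0.00228). The mean level of the whole muscle list was 3.55 to 3.63 in knockout female and 3.97 to 4.07 in knockout male pools, and 3.57 to 3.69 against 3.94 to 4.05 in wild type. How much muscle each dissection held was not measured. The count of 12 became 4 without the third female pool and 7 without the first female, second female, second male or the third male pool. It was also 7 with no filter on low values and 7 with every probe set tested.

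RNAs and proteins of nuclear speckles and splicing gave the most calls of any list on the male side, in a list written after values had been seen. Of 37 tested, 31 were negative with a median of −0.44, and 17 passed, all higher in males. Malat1, a long noncoding RNA held in the nucleus, stood at 2.73, 1.97 and 1.55 in females and at 4.0, 4.07 and 3.44 in males, a 3.36-fold difference (−1.75 ± 0.26, adjusted p = 0.00202). Srsf5, a splicing factor, stood at 1.99, 2.32 and 1.78 in females and at 3.52, 3.40 and 2.82 in males (−1.21 ± 0.21, adjusted p = 0.00671). Every male pool lay above every female pool for both genes.

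Neat1, the RNA scaffold of paraspeckles, differed by −0.78 ± 0.12 (adjusted p = 0.00316), Clk4 and Clk1, kinases that act on splicing factors, by −1.01 ± 0.18 (adjusted p = 0.00695) and −0.85 ± 0.15 (adjusted p = 0.00568), and Ccnl2, a cyclin of speckles, by −0.84 ± 0.13 (adjusted p = 0.00316). Pnn, a speckle protein, differed by −0.89 ± 0.17 (adjusted p = 0.00783), and Snrnp70, a core protein of the splicing particle U1, by −0.73 ± 0.12 (adjusted p = 0.00316) but by −0.09 on CodeLink. Srsf5, Clk4 and Pnn passed on CodeLink, where 21 of 25 members were negative with a median of −0.32 and 5 passed. The count of 17 became 7 without the third female pool and 10 without the second male pool. The 3′ to 5′ Actb ratio and the B1 repeat level given above had the opposite direction to this list. Both were higher in all female than in all male pools of each genotype, and their part was not tested.

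Some genes of surface epithelia were also higher in males. Krt13, a keratin of conjunctival and oral epithelium, stood at 4.05, 4.21 and 3.71 in females and at 4.65, 4.91 and 4.98 in males (−0.86 ± 0.16, adjusted p = 0.00765), with −1.05 on CodeLink. Its partner keratin Krt4 differed by −0.69 ± 0.15 (adjusted p = 0.014), and Muc4, a membrane mucin of the eye surface, by −0.74 ± 0.16 (adjusted p = 0.0149). These were 3 of 6 tested conjunctival and goblet cell markers, whose mean level was 2.79 to 2.92 in female and 2.94 to 3.27 in male pools, and 0 of them passed without the third female pool. The goblet cell genes of that list did not pass and had positive differences, 0.43 for the secreted mucin Muc5ac and 0.31 for Agr2, which helps fold mucins. Sprr3, a cornified envelope protein, differed by −0.94 ± 0.27 (adjusted p = 0.049), but its second female pool, at 0.75, lay inside the male range. It was the 1 of 20 tested epidermal keratinization genes that passed, the list median was −0.09, and 0 of that list passed without the first female, the third female or any male pool. Aqp5, a water channel of secretory and surface epithelia, differed by −0.47 ± 0.13 (adjusted p = 0.0462). Cyp2b19, a cytochrome P450 of mouse keratinocytes that acts on arachidonic acid, stood at 2.67, 2.57 and 2.42 in females and at 3.49, 3.43 and 3.34 in males (−0.87 ± 0.11, adjusted p = 0.000564), and it passed with any 1 knockout pool left out and on CodeLink.

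The promoters of Clk4 and Krt13 are shown as male-side genes that hold the same half-site, again 250 bases of GRCm38.p6 with the half-site in capitals.
Clk4, chr11:51262864-51263113, plus strand: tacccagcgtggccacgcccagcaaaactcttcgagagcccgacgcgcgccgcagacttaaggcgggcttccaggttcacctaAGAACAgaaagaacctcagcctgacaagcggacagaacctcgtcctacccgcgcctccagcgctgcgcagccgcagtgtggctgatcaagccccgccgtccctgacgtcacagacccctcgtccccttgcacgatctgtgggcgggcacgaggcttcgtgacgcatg
Krt13, chr11:100121567-100121816, minus strand: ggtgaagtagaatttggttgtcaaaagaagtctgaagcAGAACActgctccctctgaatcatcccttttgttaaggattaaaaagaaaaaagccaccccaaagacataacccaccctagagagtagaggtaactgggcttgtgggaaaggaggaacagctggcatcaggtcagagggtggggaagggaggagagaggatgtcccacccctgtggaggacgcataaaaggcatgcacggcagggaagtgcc
The half-site thus stands upstream of genes of both directions.

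Several other genes of the male side were large. Atg9b, a membrane protein of autophagy, had the smallest adjusted p of the autosomal genes, at 1.41, 1.70 and 1.55 in females and 2.75, 2.77 and 2.58 in males (−1.15 ± 0.12, adjusted p = 0.000151). Zc3h7a, a zinc finger protein, differed by −1.06 ± 0.15 (adjusted p = 0.00193) and by −0.65 on CodeLink. Ccdc25, a membrane protein known in human cells as a sensor of extracellular DNA, differed by −1.20 ± 0.22 (adjusted p = 0.00736), and by −0.28 on CodeLink. Resf1, a factor that helps silence retroelements, differed by −1.04 ± 0.18 (adjusted p = 0.00671) at its reported probe set and by 0.69 at a dim one. Rpl12, a ribosomal protein gene, differed by −1.26 ± 0.18 on Affymetrix (adjusted p = 0.00193) and by −0.05 on CodeLink, and ribosomal protein probes can share sequence with pseudogenes. The cell cycle genes Cdk1 (−0.51 ± 0.13, adjusted p = 0.0319) and Mki67 (−0.57 ± 0.15, adjusted p = 0.0358) were the 2 of 18 tested that passed, and 0 of that list passed without the first female, the third female, second male or the third male pool.

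Few genes of the glands' own lipid programme passed, where 6.58% of all autosomal genes did. At that share, lists of this size would hold few calls, so the low counts do not set these lists apart. Of 17 tested meibocyte and sebaceous markers, 0 passed in limma in either direction, 12 were negative and their median was −0.17. CodeLink had 4 of 15 positive with a median of −0.16. In wild type 14 of the 17 were positive, with a median of 0.15, and 0 passed. Higher in knockout males, 1 marker passed on CodeLink, 1 after quantile normalization, 1 with both array types averaged and 2 with every probe set tested. Elovl6, an elongase of fatty acids, stood at 4.17, 4.28 and 4.17 in females and at 4.42, 4.44 and 4.78 in males and missed the threshold (−0.34 ± 0.12, adjusted p = 0.0858). Of 14 genes of wax ester and peroxisomal lipid metabolism 0 passed (median −0.13), and of 15 genes of mitochondrial fatty acid oxidation 0 passed (median −0.21), with 14 of these negative. A p above the threshold does not show equal levels. The median standard error of 0.14 means that differences much below the smallest called value of 0.32 could not be called.

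Of 25 fatty acid and triglyceride synthesis genes, 2 passed, in opposite directions, against 6.58% of autosomal genes. Thrsp, a regulator of fatty acid synthesis, stood at −0.22, −0.40 and −0.04 in females and at −1.80, −0.90 and −1.41 in males, higher in females by 2.22-fold (1.15 ± 0.23, adjusted p = 0.0101). Without the third female pool its adjusted p was 0.0651. Lpin2, a phosphatidate phosphatase, was higher in males (−0.64 ± 0.10, adjusted p = 0.00316). Single genes of 3 further lists passed higher in males, where 3.85% of autosomal genes did. They were Pmvk of the cholesterol pathway (−0.39 ± 0.11, adjusted p = 0.0481, 1 of 19), Hsd17b2, which inactivates estradiol and testosterone (−0.42 ± 0.12, adjusted p = 0.0477, 1 of 14), and Cd36, a fatty acid transporter among the PPAR targets (−0.53 ± 0.12, adjusted p = 0.0157, 1 of 10). Each of these 3 lost its call without the first female, the third female or second male pool, with adjusted p from 0.0541 to 0.232, and Pmvk and Hsd17b2 also without the second female or the third male pool.

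Hormone-linked lists gave 1 to 3 calls each. Of 13 tested genes that respond to estrogen in other tissues, 1 passed, Cxcl12, with a list median of 0.06. In wild type 3 of that list passed higher in females, with a median of 0.0. Of 11 genes that respond to androgen in other tissues, 3 passed, all higher in females, where 2.73% of autosomal genes passed. They were Tsc22d3, Zbtb16 and Hpgd, which breaks down prostaglandins (0.50 ± 0.12, adjusted p = 0.0199). The first 2 also stand in the glucocorticoid list, and the count was 1 without the first female, the third female or the third male pool and 2 without the first or second male pool. CodeLink did not repeat the direction of this list, with 3 of 8 measured members positive and a median of −0.10, and 1 passed there. All 9 tested targets of growth hormone and STAT5 were positive, with a median of 0.38, and Socs2, the feedback inhibitor of growth hormone signalling, passed (0.69 ± 0.12, adjusted p = 0.00671). It stood at 2.08, 1.79 and 1.94 in females and at 1.20, 1.45 and 1.10 in males, and CodeLink gave 0.61. The median of that list was only 0.10 on CodeLink, with 6 of 7 positive. In wild type it was 0.15, with 7 of 9 positive and 3 passing higher in females. Of 26 xenobiotic and oxidative stress genes, 3 passed higher in females, Mt1 and the oxidising enzymes Fmo1 (0.93 ± 0.18, adjusted p = 0.00897) and Cyp2e1 (0.99 ± 0.23, adjusted p = 0.0193), and 1 passed without the first or the third female pool. Id1, a target of BMP signalling, was higher in males (−0.46 ± 0.11, adjusted p = 0.0199).

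CodeLink repeated most directions. Of 360 called autosomal genes with a CodeLink spot, 331 had the same sign there (91.9%), against 69.7% of all 5460 autosomal genes on both array types. Of 297 bright enough to be tested, 86 passed on CodeLink, and 284 of its 6573 genes passed in all (4.32%). Since both array types carry the same RNA, this repeats the array measurement and not the biology. Sla, an adaptor of immune cell receptors, was named after its values were seen because the array types disagreed, with 1.47 ± 0.28 on Affymetrix (adjusted p = 0.00817) and −0.02 on CodeLink, where its spot lacked the flag G in all knockout pools.

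**Figure D3:**
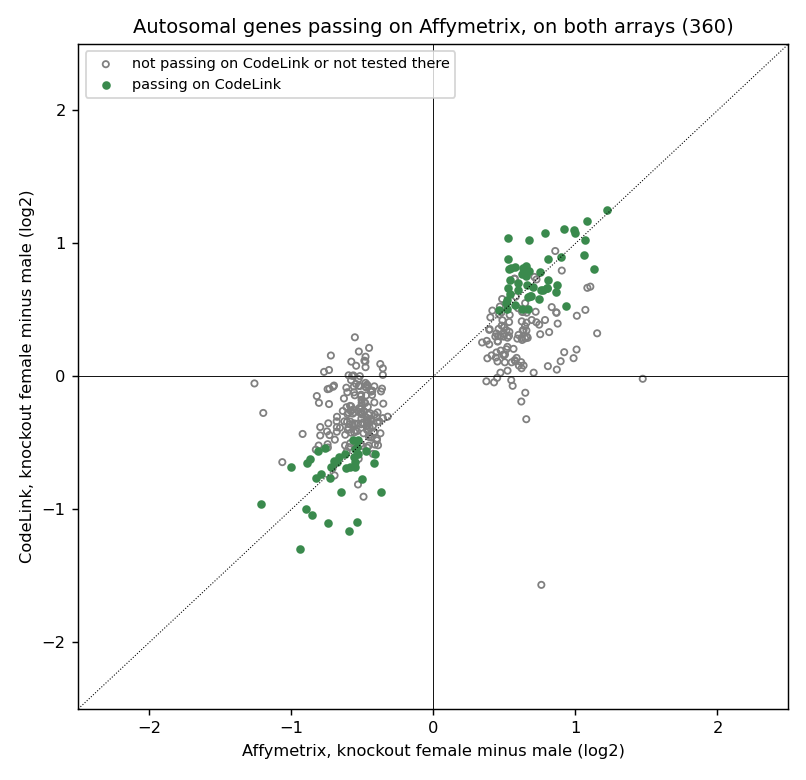
Female minus male difference in the knockout on Affymetrix (horizontal axis, log2) and CodeLink (vertical axis, log2) for the 360 autosomal genes called on Affymetrix and measured on both, with filled points for genes that also pass on CodeLink and the dotted line for equal values. Most points, 331, lie in the 2 quadrants of equal sign.

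Most of these sex differences had the same direction in wild type glands, which share no array with the knockout comparison, although both genotypes share the estimate of spread. Of the 475 genes, 429 (90.3%) had the same sign in wild type, against 61.0% of all autosomal genes tested. In wild type, 643 genes passed (8.65%), of which 610 were autosomal (8.45%), 423 higher in females (5.86%) and 187 in males (2.59%). The lists shared 153 genes called in the same direction, which is 32.2% of the knockout list and 25.1% of the wild type list, and 1 gene was called in opposite directions. The shared genes were 70 higher in females and 83 in males. Across the 7216 autosomal genes the 2 sex differences had a Pearson r of 0.51 and a Spearman rho of 0.45, a description across genes that share arrays and technical influences.

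The values of named genes show both outcomes. Malat1 differed by −1.81 in wild type and −1.75 in the knockout, Atg9b by −1.21 and −1.15, Rpl12 by −1.40 and −1.26, Cebpd by 1.02 and 1.22, and Cpa3 by 1.49 and 0.89. In contrast, Per1 differed by 0.08 in wild type and 0.90 in the knockout, Igha by 0.11 and 0.81, and Psat1, an enzyme of serine synthesis, by −0.04 and −0.56 (−0.56 ± 0.10, adjusted p = 0.00736). By list, wild type had 11 skeletal muscle markers passing higher in males, 16 nuclear speckle and splicing genes higher in males and 1 higher in females, 13 fibroblast and matrix markers higher in females, and 8 macrophage markers higher in females. The medians of these lists were −0.40, −0.39, 0.44 and 0.51 in wild type. Some other lists had fewer calls there and some had more. Growth hormone and STAT5 targets and estrogen-responsive genes each had 3 passing higher in females, against 1 in the knockout. These lists and the named genes were picked by their knockout values, so smaller values in wild type are no separate result. Class II presentation went from 3 passing in the knockout to 0 in wild type (medians 0.65 and 0.45), endothelial markers from 3 to 0 (0.24 and 0.22), B and plasma cell markers from 2 to 0 (0.81 and 0.11), and cytokines and chemokines from 5 to 3 (0.55 and 0.08).

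Whether a sex difference itself differed between knockout and wild type was tested in the same model, and 0 of 7436 genes passed in limma (smallest adjusted p = 0.211), with 0 on CodeLink (smallest adjusted p = 0.586). At an unadjusted p under 0.05 there were 1038 genes (13.96%) on Affymetrix and 524 (7.97%) on CodeLink. Without the first knockout male pool 11 genes passed. The median over all genes of this difference was −0.12, and −0.01 after quantile normalization. For the 475 genes the 95% interval of the difference reached 0.41 to either side at the median, with a range of 0.27 to 1.11. Sex differences of the size seen here could thus change by a large part of themselves between genotypes without passing. For Igha the difference of sex differences was 0.70 with an unadjusted interval from 0.25 to 1.16 (adjusted p = 0.267), and for Malat1 it was 0.06 with an interval from −0.71 to 0.83.

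**Figure D4:**
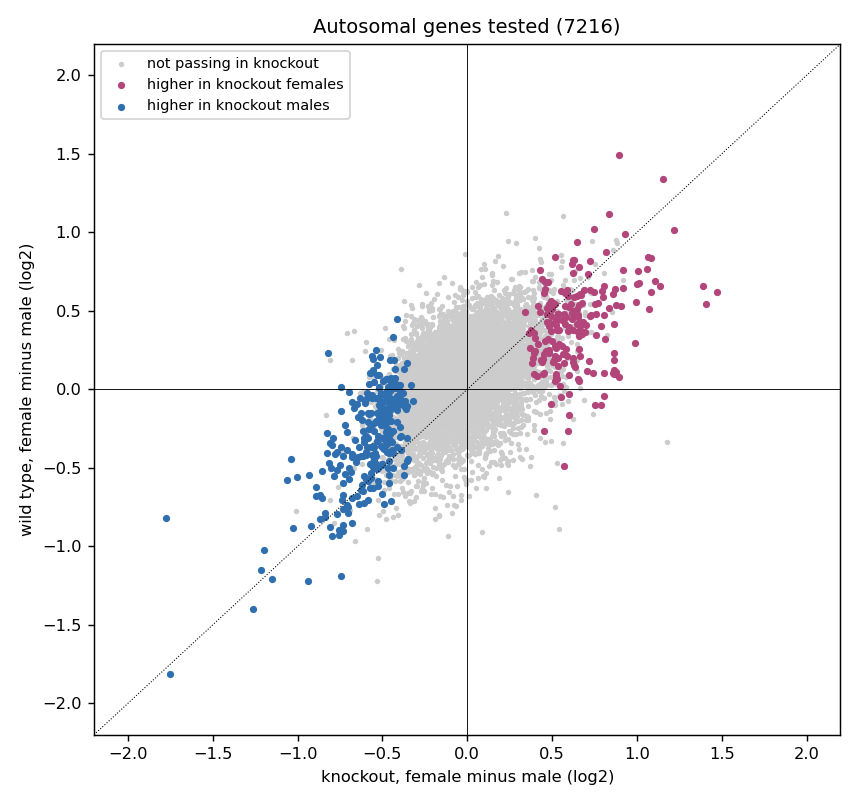
Female minus male difference (log2) in knockout (horizontal axis) and wild type (vertical axis) glands for 7216 autosomal genes, 1 point per gene, coloured where the gene passed in the knockout, with the dotted line for equal values. Coloured points lie mostly in the quadrants of equal sign, 429 of 475, and many lie nearer to 0 in wild type. Genes were coloured by their knockout values, so the smaller wild type values are no separate result.

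Some sex differences of the knockout meibomian gland differed from those of the knockout lacrimal gland. The lacrimal gland is its neighbour and makes the watery part of tears. Of the 475 genes, 387 were also tested in lacrimal glands, and 187 of these (48.3%) had the same sign there. In lacrimal glands 21 passed in the same and 22 in the opposite direction, while 677 of all 7436 genes tested there passed (9.10%). The difference between the glands passed for 706 genes (9.49%), and for 132 of the 452 called genes that entered that test. The rest of the 452 were not shown to differ between the glands. Since the 452 were chosen by one side of that difference, their higher share is no separate result. The median over all genes of the gland difference was −0.14. Knockout lacrimal arrays had median signals of 12.2 to 13.7 in females and 15.9 to 20.8 in males, below those of all knockout meibomian arrays. The part of these signal levels in the gland differences was not tested. The directions depended on the array type, with 267 of the 706 genes above and 439 below 0, against 413 and 114 on CodeLink.

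Thrsp differed by 1.15 in meibomian and −2.33 in lacrimal glands, a difference between glands of 3.48 ± 0.44 (adjusted p = 6.82e-06). C1qb, at 1.08 in meibomian glands, was at −1.07 in lacrimal glands, and Ccl9 at 1.11 was at −1.32. Hpgd (0.50 and −1.74), Vwf (0.66 and −1.37) and Mxra8, a matrix-linked adhesion protein (0.44 and −1.46), followed the same order of signs. In the other direction, Psat1 differed by −0.56 in meibomian and 2.43 in lacrimal glands, Cmya5 by −0.89 and 1.62, Cyp2b19 by −0.87 and 1.58, Akap9, a scaffold of the Golgi and centrosome, by −0.78 and 1.07, and Atg9b by −1.15 and 0.61. All of these 11 differences between glands passed.

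**Figure D5:**
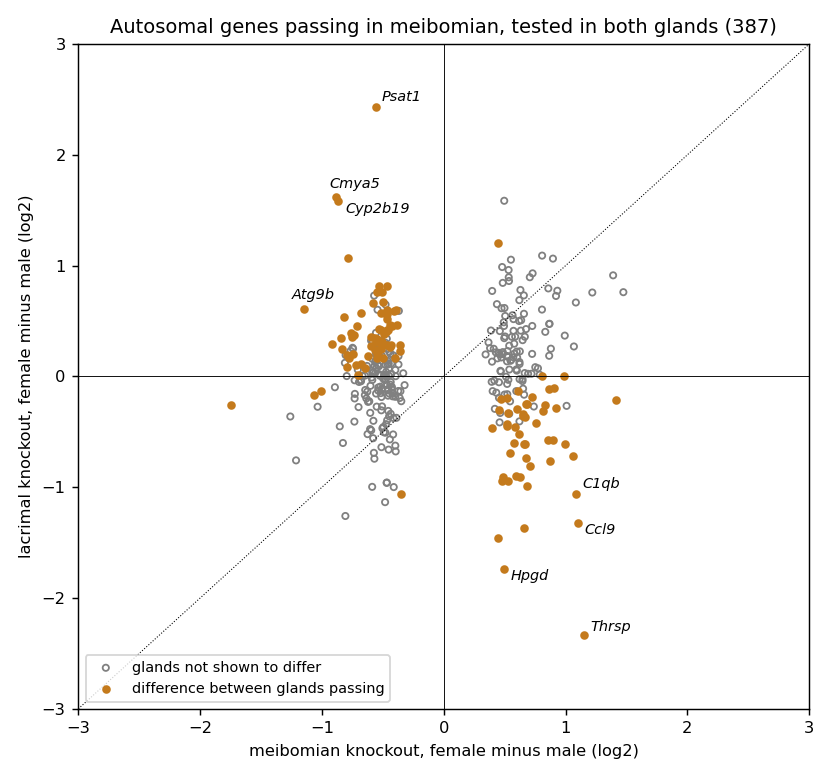
Female minus male difference in knockout meibomian (horizontal axis, log2) and knockout lacrimal glands (vertical axis, log2) for the 387 called autosomal genes tested in both, with filled points where the difference between glands passed and the dotted line for equal values. Points lie in all 4 quadrants, 187 of them with equal sign, and the named genes have opposite signs.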

How the data were processed

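Affymetrix intensity values per probe set were used as deposited by the authors; the submitters' processing notes name GCOS, the software of the Affymetrix system, with no version or settings, and array medians show no scaling to 1 level. CodeLink intensity values were divided by the authors by 1 factor per array, after subtraction of the median local background, per the file headers and values. A flag G marks part of the CodeLink spots and is not explained in the sources used here. The labels give Trizol and spin columns for meibomian RNA on the Affymetrix records and Trizol extractions alone on the CodeLink records, although the same labelled RNA (from 2 µg) is said to have gone on both.

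Of 22690 Affymetrix probe sets, 20393 name 1 gene, and 20373 of these matched the RefSeq gene table of GRCm38.p6, which gave symbols and chromosomes. Each gene took the probe set of highest mean over 24 arrays (12394 genes, and 10956 on CodeLink). Before the log2 transform, 4.4 was added to Affymetrix and 0.305 to CodeLink values, in each case the 20th percentile of all positive ones, and values were then centred on each array's median, so folds of dim genes are understated. The top 60% of genes by mean in the gland were tested with limma 3.58.1 in R 4.3.3 (lmFit, contrasts, eBayes with an intensity trend), with 4 group means, or 8 for the difference between glands, and Benjamini-Hochberg adjustment at 5%. Values after ± are standard errors from the fit. The fit was tested on simulated data. Python 3.11.15, pandas 2.3.3 and matplotlib 3.10.9 were used for tables and figures.

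In the knockout, the deviations of female and male pools with the same number had correlations of 0.23, −0.08 and −0.05. These values do not settle whether the numbers pair the pools, and the main fit used no pairing. Named genes were the sex chromosome genes, up to 14 of the largest autosomal differences per direction with the same CodeLink sign, up to 4 members of smallest p per gene list, and the 6 largest gland differences per direction, with exceptions named as such. The gene lists, the members and the naming rule were chosen with earlier results of these data known, and the lists of glucocorticoid-induced genes, of nuclear speckle and splicing genes and of mast cell markers were written after values were seen. Alternatives covered the pseudocount, scaling, filter, variance trend, array type, probe choice, arrays in the fit and each pool left out.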

Additional observations from a re-analysis of the deposited data

Results flagged for a closer look

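For 39 of the 89 named genes the female minus male difference of knockout mice differed between meibomian and lacrimal glands at 5% in a limma test of that difference, against 9.49% of all genes. The named genes were chosen largely by the meibomian side of this difference, and some by the gland difference itself, so their share is no separate result. Values here are the meibomian minus the lacrimal sex difference on the log2 scale, over 3 pools per group, and the explanation was not tested. Among immune genes, it was 2.15 for C1qb, 1.60 for Tyrobp, 1.78 for Ms4a6d, 2.43 for Ccl9, 1.20 for Ccl6, 1.18 for H2-Ab1, 0.99 for Cd74 and 1.47 for Cpa3. Among antibody genes, it was 1.62 for Igkv8-30, 0.81 for Igha and 1.01 for Jchain, which were near 0 in lacrimal glands (−0.21, 0.00 and −0.10).

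Matrix, vessel and smooth muscle genes differed by 0.95 for Thy1, 1.27 for Fn1, 1.90 for Mxra8, 2.03 for Vwf and 0.74 for Mylk. The hormone-linked genes Mt1, Fkbp5, Socs2 and Hpgd differed by 1.41, 1.82, 0.94 and 2.24, and Thrsp of fatty acid synthesis by 3.48. On the male side of the meibomian gland, the muscle genes Trdn, Ttn, Tnni2 and Cmya5 differed by −2.09, −1.12, −0.99 and −2.51. Of these, Trdn, Ttn and Tnni2 were too dim to be tested in lacrimal glands alone and entered through their meibomian level, so their values support no difference between glands. Genes of nuclear RNA processing differed by −1.49 for Malat1, −0.95 for Neat1, −1.09 for Ccnl2 and −0.88 for Clk4.

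Epithelial genes differed by −1.32 for Krt13, −1.04 for Aqp5 and −2.45 for Cyp2b19, and the value of Krt13 has the same limit as those of Trdn, Ttn and Tnni2. The remaining male-side genes differed by −1.75 for Atg9b, −0.90 for Zc3h7a, −0.99 for Pmvk, −1.02 for Id1, −2.99 for Psat1 and −1.85 for Akap9. Eif2s3y, the Y-linked gene, differed by −2.14, with female signals below the pseudocount.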

How the results depend on the processing

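Against 501 genes between knockout sexes (475 autosomal), CodeLink gave 284 (275 autosomal) and the 6 arrays of the contrast alone 302 (285). Leaving out 1 pool gave 70 to 553 genes (63 to 523 autosomal), with 169, 70 and 188 without the first female, the third female and second male knockout pool; the upper values come from leaving out the second wild type female pool, added after the data were seen. Between wild type sexes, leaving out 1 pool gave 71 to 477 against 643, with 71, 168, 344, 357 and 398 without the second male, second female, the third female, first male and first female pool. For the difference between genotypes it gave 0 to 11 against 0, and for that between glands 399 to 880 against 706, with 399 and 469 without the third and first knockout female meibomian pool. The gland difference had 267 genes above and 439 below 0, 405 and 349 after quantile normalization, and 413 and 114 on CodeLink. Wild type calls split 448 and 195 in the main setting and 200 and 270 after quantile normalization. Pseudocounts, filters, variance trend and probe choice kept these counts, over both directions, within 1.5 times. By direction, with no filter on low values 192 genes were higher in knockout males against 294 (179 against 278 autosomal), and with the brightest 40% tested 116 were higher in wild type males against 195.

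With the replicate block, 589 genes passed between knockout sexes (560 autosomal), 758 in wild type, 0 between genotypes and 756 between glands. The main fit gave 501, 643, 0 and 706. The correlations given above do not settle whether the shared numbers mean a pairing. Over 1520 refits in which a named gene was tested, 1518 kept the direction. The exceptions were Ddx3x, −0.106 on CodeLink, and Sfrp2, −0.404 with both array types averaged, and the cause was not tested. Much of this count was fixed in advance. A change of the filter, the variance trend, the replicate block or the other arrays in the fit leaves the difference itself unchanged. The largest differences were also named only with the same CodeLink sign where measured. Sfrp2, Nr3c1 and Sla, of opposite sign on CodeLink, were too dim there to be among the refits. A called gene lost its call in 218 refits, 137 of them with 1 pool left out. Scan batch was not run as a block, since the files used here give none. Dim CodeLink spots and 3 pools per group limit the precision.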

Other observations

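Of the 56 autosomal genes that passed with any 1 knockout pool left out, some were not described above, and the following were chosen after their values were seen. Higher in knockout females were Pltp, a phospholipid transfer protein (0.99 ± 0.16, adjusted p = 0.00316 in limma), Muc5b, a secreted mucin (0.86 ± 0.16, adjusted p = 0.00736), and Actg2, an actin of visceral smooth muscle (0.81 ± 0.13, adjusted p = 0.00366). Wild type differences of these genes were 0.29, 0.12 and −0.04, and CodeLink gave 0.14 for Pltp and 0.88 for Actg2. The growth factor gene Igf2 (0.62 ± 0.13, adjusted p = 0.0115) and the secreted matrix-linked protein gene Ccn2 (0.68 ± 0.13, adjusted p = 0.00793) were also higher in females and passed on CodeLink with 0.77 and 1.03.

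Higher in knockout males were Cd274, the inhibitory ligand PD-L1 (−0.83 ± 0.15, adjusted p = 0.00776), Ddit3, a transcription factor of the stress response (−0.74 ± 0.13, adjusted p = 0.00695), and Ryr1, the calcium release channel of skeletal muscle (−0.53 ± 0.10, adjusted p = 0.00908). CodeLink gave −0.76, −0.51 and −0.59 for these genes. Ear3, an eosinophil ribonuclease gene without a chromosome in the gene table and so outside the autosomal count, was higher in females by 1.68 ± 0.27 (adjusted p = 0.00317).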
